A study of Mus musculus with 19 samples.

Results

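The obstructed kidneys of CD5L KO mice injected with recombinant CD5L (CD5L KO + rCD5L, n = 5) were set against those of CD5L KO mice injected with PBS (CD5L KO + PBS, n = 4). These are 9 of the 19 whole kidneys sequenced, and they were taken by their genotype and treatment labels alone. All 9 were from male mice, 8 to 9 weeks old, that lacked CD5L on the C57BL/6J background. Each mouse had its left ureter tied and cut, a model of renal fibrosis called unilateral ureteral obstruction (UUO), and its kidney was taken on day 12. Mice of the rCD5L group received 0.5 mg of mouse rCD5L a day into the peritoneum, and control mice received the same volume of PBS, so that both groups shared the deletion, the surgery and the injections. The rCD5L was purified from cultured hamster CHO-S cells, and how the CD5L allele was inactivated was not given in the sources used here. The comparison asks which transcripts changed when the missing protein was supplied from outside, and how far 5 treated kidneys showed the same change.

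CD5L is a protein that tissue macrophages release into the blood, and it also goes by the name AIM. It binds cell debris and is taken into cells through scavenger receptors such as CD36. In an obstructed kidney the tubular epithelium, above all that of the proximal tubule, loses its transport proteins and dies, while macrophages and lymphocytes enter and myofibroblasts lay down collagen. A count from a whole kidney mixes all of these cells, so that fewer cells of a type and less RNA per cell cannot be told apart.

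Cd5l itself (ENSMUSG00000015854, GRCm38 chr3:87357881-87371073) had 0 counts in each of the 9 CD5L KO kidneys, where a count of 0 allows up to 3, and between 3 and 15 counts in the 10 WT kidneys. The injected protein leaves no transcript, so that Cd5l checks the genotype and not the treatment. The 9 libraries held 19066913 to 23815770 counts. Kidney markers were present in all of them. Kap, an androgen-dependent protein of the proximal tubule, lay between 2184 and 34959 CPM (counts scaled to a library of fixed size, with TMM factors), and Umod of the thick ascending limb between 1406 and 3551 CPM.

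Replicate 4 of CD5L KO + rCD5L stood apart from the other 8 kidneys. On the first principal component of log2 CPM, which held 50.8% of the variance, its score was 117 while the others lay between -28.2 and 6.71. Mitochondrially encoded genes took 10.3% of its counts against 3.16% to 4.55% elsewhere, and its 10 most counted genes took 15.4% against 6.82% to 9.23%. Of the 17467 genes tested, 1000 were over 2-fold above every other kidney in this library and 1137 were over 2-fold below every other kidney. Replicate 3 of the same group stood apart in another direction, with a score of 74.5 on the second component (20.7% of the variance) where the others lay between -17.1 and 6.04, and with 34 genes over 2-fold above and 212 over 2-fold below all other kidneys. The sources used here do not say why either kidney differed, or whether it was handled otherwise than the rest, so that each fold change with all kidneys averages them with the other 3. The main results below are given with all 9 kidneys and without replicate 4, and in part also without replicate 3 or without both. The last set was chosen after the values were seen.

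**Figure D1:**
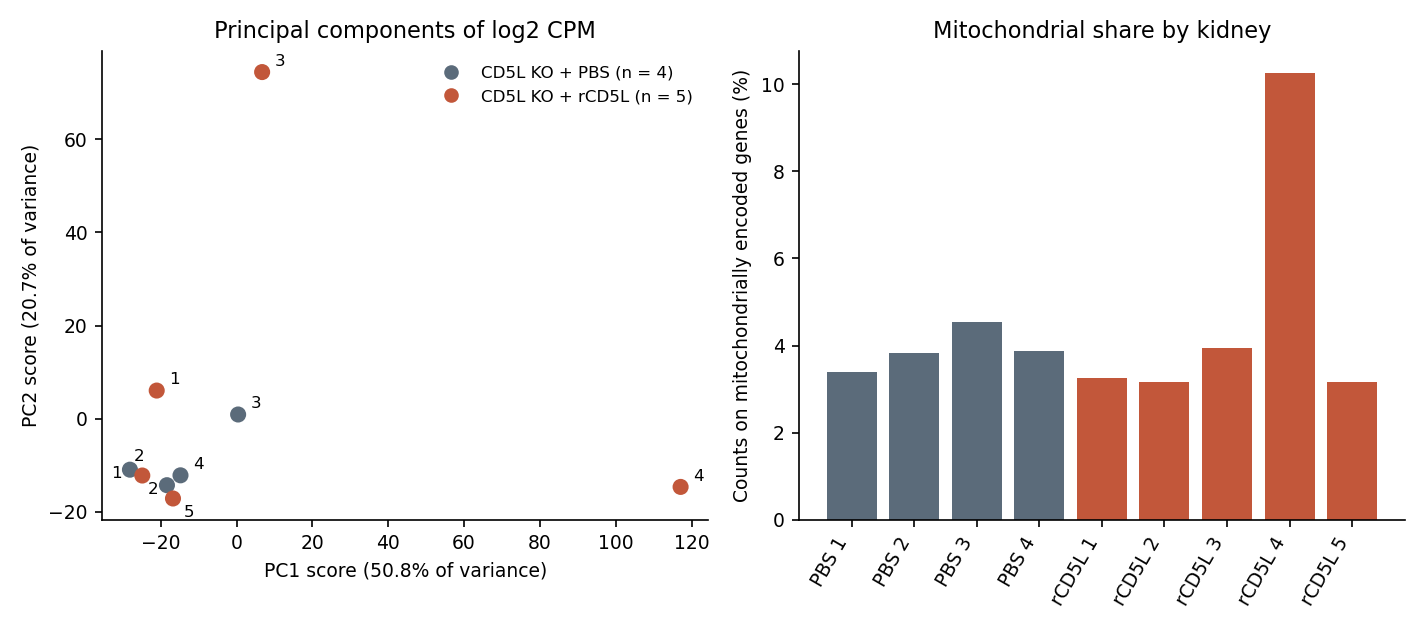
Left, scores of the 9 CD5L KO kidneys on the first and second principal components of log2 CPM over 17467 genes, with numbers for replicates. Right, the share of counts on mitochondrially encoded genes in each kidney (%). Replicate 4 of the rCD5L group lies alone at 117 on the first component and at 10.3% on the right, and replicate 3 lies alone at 74.5 on the second component.

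Several lists of tubular and mitochondrial genes were high in replicate 4. All 37 tested genes of the list for proximal tubule transport and uptake, which also holds Umod of the thick ascending limb, were higher in this kidney than in the other 8, and their median was 2.87 log2 units above the mean of the PBS kidneys, while the other 4 treated kidneys lay between -0.17 and 0.24. The same held for all 45 nuclear genes of the respiratory chain, all 13 mitochondrially encoded genes and 8 of 9 tested liver genes, and for 14 of 23 genes of the loop, distal tubule and collecting duct. Miox, the enzyme that breaks down myo-inositol in the proximal tubule, had 78.4, 148, 184 and 176 CPM in PBS replicates 1 to 4 and 133, 138, 269, 2674 and 129 CPM in rCD5L replicates 1 to 5. Lrp2, the endocytic receptor megalin, had 212, 280, 255 and 295 CPM on PBS and 221, 290, 258, 2055 and 277 CPM on rCD5L. For both genes the other 4 treated kidneys overlapped with the PBS kidneys. Among the genes that lay furthest above the other 8 kidneys in replicate 4 were Egf (728 CPM against 18.6 to 58.8 CPM) and the organic anion transporter Slc22a8 (571 CPM against 11.2 to 42.4 CPM).

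Genes of injury, inflammation and matrix were low in the same kidney. Of 32 genes of tubular injury and repair, 27 were lower there than in all other kidneys, as were 24 of 25 macrophage genes, 34 of 36 genes of myofibroblasts and matrix, 15 of 17 collagens and 29 of 38 chemokines and receptors. Spp1, osteopontin of the injured tubule, was at 8664 CPM against 18409 to 24177 CPM. C3, the central complement component, was at 226 CPM against 1468 to 2383 CPM. Thbs4, a matrix protein, was at 0.362 CPM against 17.1 to 34.4 CPM. Over all genes tested, 28.8% were highest and 31.1% lowest in this library.

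**Figure D2:**
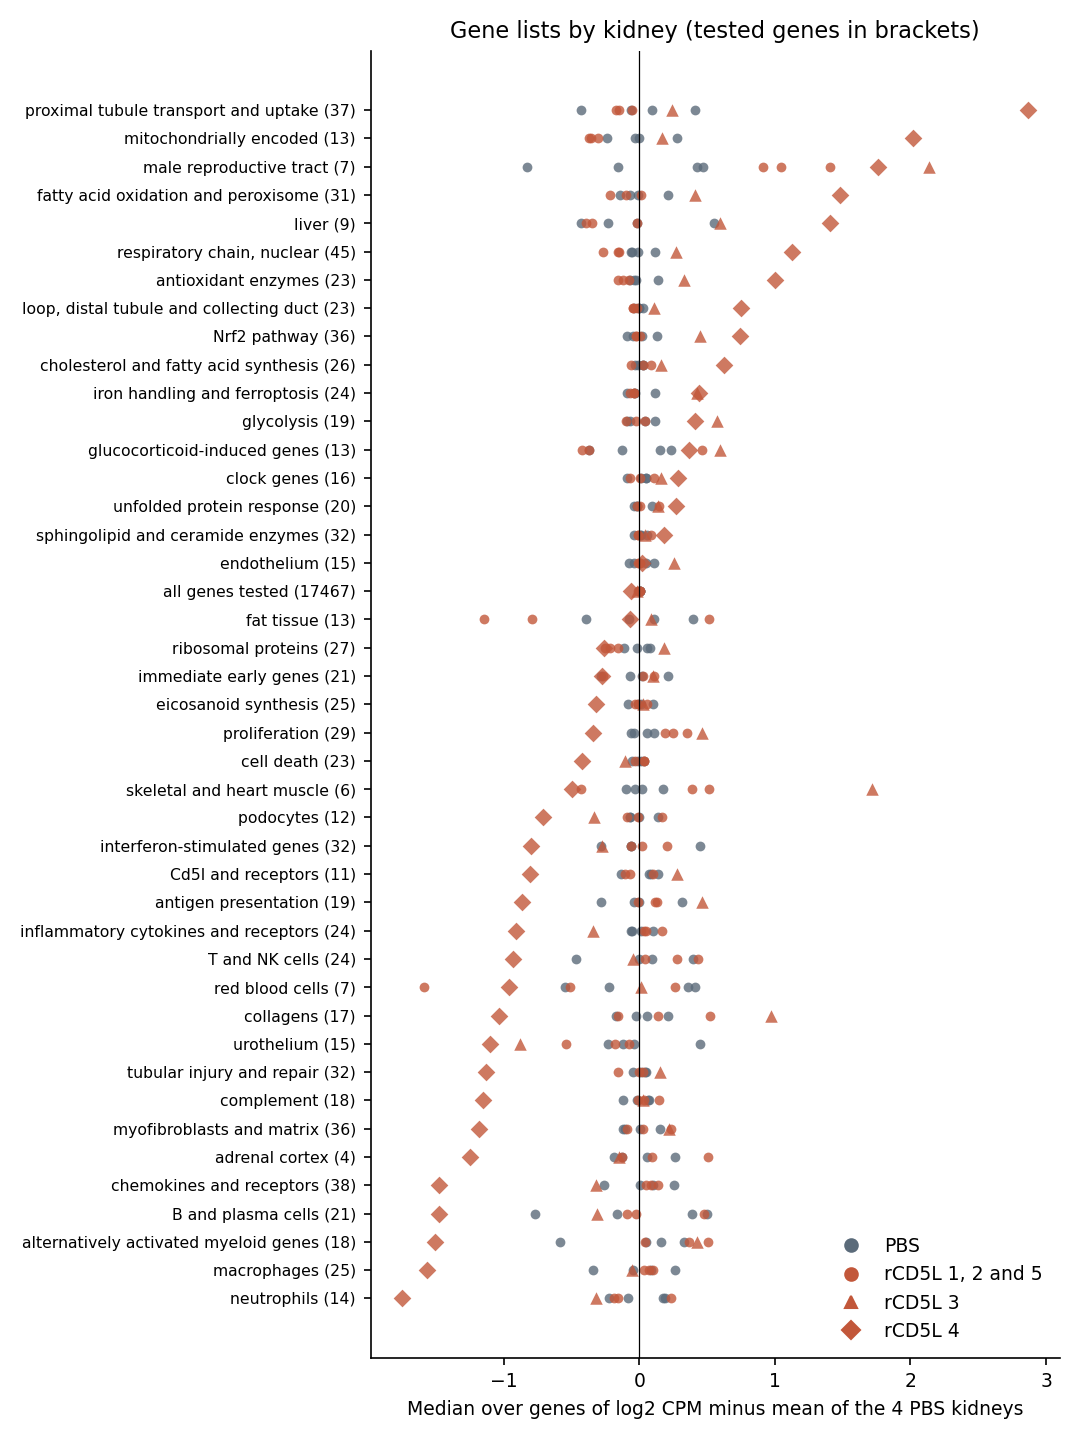
Median over the tested genes of each list of log2 CPM minus the mean of the 4 PBS kidneys (horizontal axis, log2 units), 1 point per kidney, for lists with at least 4 tested genes. Replicate 4 of the rCD5L group (diamonds) lies at 2.87 for proximal tubule transport and at -1.56 for macrophages, far from the other 8 kidneys.

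Replicate 3 was set apart by fewer genes. Acta1, the actin of skeletal muscle, had 16.3 CPM there and 0.128 to 0.774 CPM in the other 8 kidneys, and Atp2a1, the calcium pump of fast muscle, had 8.16 CPM against 0.0725 to 0.591 CPM. These 2 were named after their values were seen, from a list of 15 muscle genes of which 6 were tested. The median of the 6 was 1.72 log2 units above the PBS mean in replicate 3 and between -0.50 and 0.51 in the other treated kidneys. With all kidneys 4 of them were higher on rCD5L and 2 lower, and their median log2 fold change was 0.87, but -0.02 without replicate 3. Tnnt2, the troponin T of heart muscle, also named after its values were seen, went the other way, with 2.90 to 3.40 CPM on PBS and 1.83, 1.45, 1.22, 0.290 and 1.56 CPM on rCD5L (log2 fold change -1.26 ± 0.37). Mylpf, a myosin light chain of fast muscle and likewise named after its values were seen, was above all PBS kidneys in all 5 treated kidneys, with 0.691, 1.04, 0.629 and 0.795 CPM on PBS and 1.32, 1.24, 4.10, 2.54 and 1.14 CPM on rCD5L. Its log2 fold change was 1.37 ± 0.44 with all kidneys (unadjusted p = 0.0101) and 0.64 without replicates 3 and 4, where the groups still did not overlap. Collagens were high in this kidney, with a median 0.97 log2 units above the PBS mean, where the other treated kidneys lay at 0.52, 0.14, -1.03 and -0.16. The median distance of a gene from the mean of the PBS kidneys was 0.424 log2 units in replicate 3 and 0.504 in replicate 4, against 0.160, 0.149 and 0.147 in replicates 1, 2 and 5.

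The spread between the treated kidneys was widest with these libraries. The biological coefficient of variation (BCV, the variation between kidneys beyond counting error) was 36.7% in CD5L KO + rCD5L and 12.3% in CD5L KO + PBS. It was 23.7% without replicate 4 and 13% without replicates 3 and 4, beside 12.7% in WT + PBS and 10.5% in WT + rCD5L. The median SD of a gene was 0.147 log2 units over the PBS kidneys and 0.394 over the rCD5L kidneys, and 90.2% of genes varied more in the rCD5L group. Without replicates 3 and 4 the median SD was 0.147 and 49.3% of genes varied more.

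With all 9 kidneys, no gene passed edgeR's quasi-likelihood test at an adjusted p of 0.05 (0 of 17467, 0%), and the smallest adjusted p was 0.897. At an unadjusted p under 0.05 there were 502 genes (2.87%), 245 higher (1.4%) and 257 lower (1.47%) on rCD5L. The split by direction depended on the scaling, with 73 higher and 252 lower by total counts alone and 142 and 334 with upper-quartile factors. The groups did not overlap for 205 genes that were higher (1.17%) and 210 that were lower (1.2%). Without replicate 4, again 0 of 17411 genes passed, with 0.763 as the smallest adjusted p, and 965 genes had an unadjusted p under 0.05 (5.54%), 509 higher (2.92%) and 456 lower (2.62%). The groups then did not overlap for 439 higher (2.51%) and 487 lower genes (2.79%), and 383 genes had an unadjusted p under 0.05 and the same direction in both fits. Without replicates 3 and 4, 764 of 17680 genes were higher (4.32%) and 962 lower (5.44%) at that level, and 0 passed the adjusted test, with a smallest adjusted p of 0.0913. DESeq2 called 3 genes with all kidneys (Cuzd1, Chil3 and Crabp1, all higher, adjusted p = 0.0308) and 7 without replicate 4, of which Banp, Rnase2a, Fcna, Cuzd1 and Sfpq were higher and Sarnp and Rpl30-ps10 lower.

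Which genes lay furthest apart also depended on replicate 4. With all kidneys, 308 genes were at least 2-fold higher on rCD5L and 86 at least 2-fold lower, but the groups overlapped for 291 and 60 of them. Without it there were 69 and 77 such genes, of which 59 and 53 were also among the former. The fold change pointed the other way in 3725 of the 17393 genes tested in both fits (21.4%). Kap was 1.48 ± 0.82 log2 units (SE) higher with all kidneys, and its log2 fold change without replicate 4 was -0.0020 ± 0.35.

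**Figure D3:**
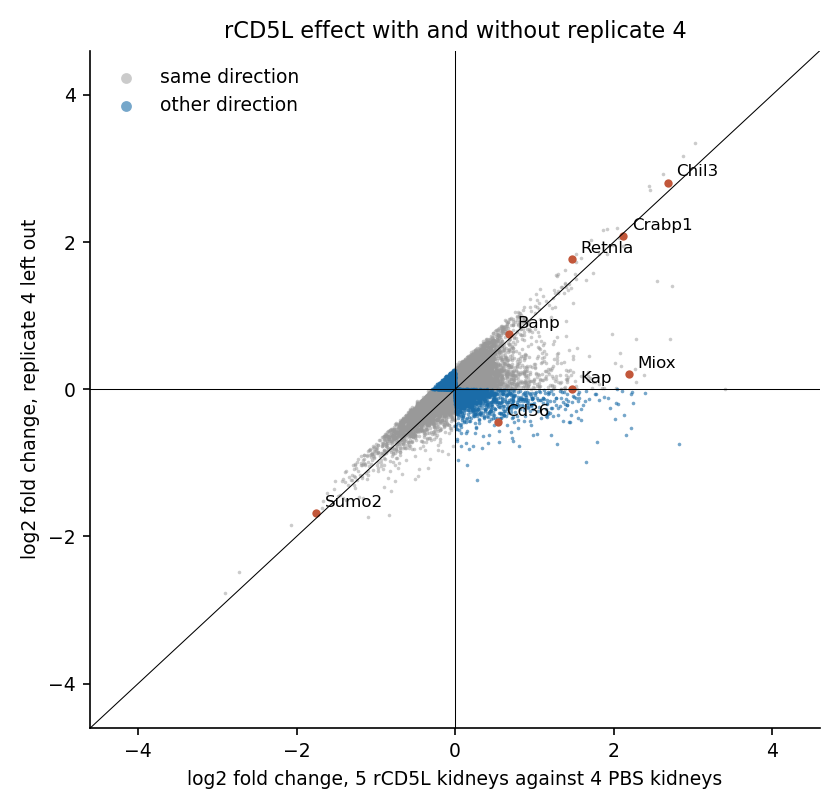
log2 fold change of rCD5L against PBS for 17393 genes with all 5 treated kidneys (horizontal) and without replicate 4 (vertical). Genes of the proximal tubule such as Miox (2.19 and 0.20) lie along the horizontal axis, Chil3, Crabp1, Banp and Sumo2 lie near the diagonal, and the 3725 genes in blue have opposite signs in the 2 fits.

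Secreted proteins of alternatively activated macrophages, the state that interleukin-4 and interleukin-13 induce through STAT6, were among the genes furthest above the PBS kidneys. Chil3 (Ym1, a chitinase-like lectin) had 2.03, 2.44, 2.90 and 2.19 CPM in PBS replicates 1 to 4 and 33.7, 3.55, 25.7, 10.5 and 3.63 CPM in rCD5L replicates 1 to 5. The groups did not overlap, but replicates 2 and 5 lay just above the PBS kidneys and replicates 1 and 3 far above them. The log2 fold change of Chil3 was 2.69 ± 0.68 (unadjusted p = 0.00251) with all kidneys and 2.81 ± 0.69 without replicate 4 (adjusted p = 0.763, edgeR). Its reads can be shared with the similar gene Chil4, so that the split between these genes is uncertain. Retnla (Fizz1, RELM-alpha) had 22.7, 20.6, 6.58 and 23.9 CPM on PBS and 83.4, 91.1, 45.1, 4.78 and 30.9 CPM on rCD5L. Replicate 4 lay below all PBS kidneys and the other 4 treated kidneys lay above all of them. The log2 fold change was 1.47 ± 0.67 (unadjusted p = 0.0515) with all kidneys and 1.77 ± 0.41 without replicate 4 (unadjusted p = 0.00124, adjusted p = 0.763, edgeR).

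The letters upstream of both genes are shown because these were the 2 members of the list of alternatively activated myeloid genes furthest from the PBS kidneys, and because STAT factors bind short palindromes. They are from RefSeq (GRCm38.p6) and run from 250 to 101 bases before the annotated start, 5′ to 3′ on the gene's own strand. Capitals mark TTCNNNGAA or TTCNNNNGAA, each of which reads the same on both strands, and the 2 patterns do not overlap here.
Retnla, chr16:48842359-48842508, plus strand: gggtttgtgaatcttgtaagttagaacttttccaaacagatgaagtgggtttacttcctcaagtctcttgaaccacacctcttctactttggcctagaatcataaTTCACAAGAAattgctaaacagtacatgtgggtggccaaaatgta
Chil3, chr3:106167665-106167814, minus strand: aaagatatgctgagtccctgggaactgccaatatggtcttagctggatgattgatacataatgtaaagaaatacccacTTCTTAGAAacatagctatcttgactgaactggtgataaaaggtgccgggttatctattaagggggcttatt
TTCNNNNGAA began 145 bases before the start of Retnla and was held by 3.75% of the 32851 promoters in the same window. TTCNNNGAA began 172 bases before the start of Chil3 and was held by 4.4% of them. A match of letters does not show that a factor binds there.

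**Figure D4:**
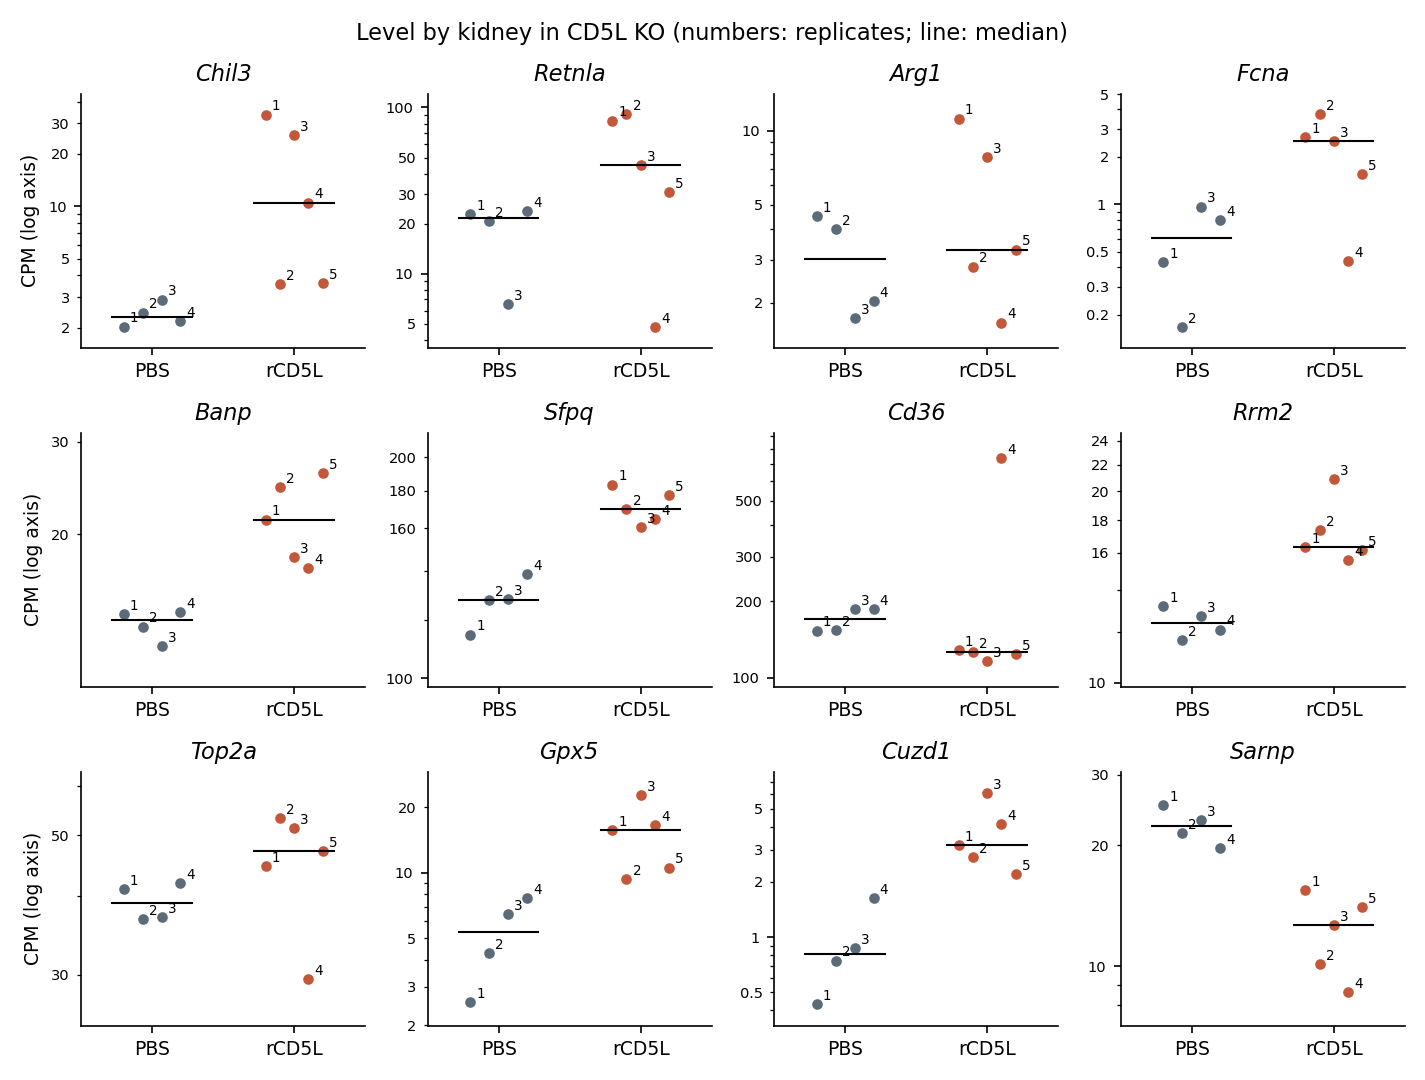
CPM (log axis) of 12 genes in each of the 4 PBS and 5 rCD5L kidneys, with replicate numbers and the median of each group as a line. Chil3, Banp, Sfpq, Rrm2, Gpx5 and Cuzd1 are above all PBS kidneys in all 5 treated kidneys and Sarnp is below them, while Retnla, Fcna, Cd36 and Top2a separate only without replicate 4.

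As a whole, the list of alternatively activated myeloid genes, which includes Chil3 and Retnla, lay closer to the PBS kidneys. Of its 18 tested genes, 11 were higher on rCD5L (median log2 fold change 0.13, against 0.02 over all genes). Without replicate 4, 12 were higher (median 0.36, against 0.01). Of these, 5 had an unadjusted p under 0.05 (2.92% of all genes), Chil3 and Retnla among them. Without replicate 3 alone, a set that keeps replicate 4, the median was 0.02, against 0.01 over all genes. Without replicates 3 and 4 the median was 0.26, with 14 of 18 higher and 4 at an unadjusted p under 0.05 (4.32% of all genes). Arg1, the arginase of these cells, had 4.49, 3.98, 1.74 and 2.04 CPM on PBS and 11.2, 2.81, 7.80, 1.67 and 3.29 CPM on rCD5L, so that only replicates 1 and 3 were above the PBS range. Fcna, the macrophage lectin ficolin A of the complement system, had 0.432, 0.166, 0.968 and 0.795 CPM on PBS and 2.68, 3.76, 2.52, 0.435 and 1.56 CPM on rCD5L. This gene, which is on no list here, was lowest among the treated kidneys in replicate 4 and above all PBS kidneys in the other 4, with a log2 fold change of 1.92 ± 0.61 with all kidneys and 2.18 ± 0.46 without replicate 4, where DESeq2 called it (adjusted p = 0.0208). Rnase2a, of the family of eosinophil-associated ribonucleases, was under the count filter with 0, 0, 1 and 1 counts on PBS and 40, 56, 75, 0 and 1 counts on rCD5L. DESeq2 called it without replicate 4 (adjusted p = 0.00943), but its log2 fold change rests on near-empty control libraries, 1 of the 4 remaining treated kidneys was at the control level, and near-identical family members can share its reads.

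Macrophage markers as such gave other values. Of 25 macrophage genes, 5 were higher with all kidneys (median -0.22), 11 without replicate 4 (median -0.01) and 17 without replicates 3 and 4 (median 0.05). Adgre1, which encodes F4/80, had 132, 114, 61.3 and 93.2 CPM on PBS and 93.5, 114, 71.1, 31.8 and 114 CPM on rCD5L. The direction of lymphocyte genes depended on replicate 4. Of 24 genes of T and NK cells, 10 were higher with all kidneys (median -0.03) and 18 without replicate 4 (median 0.17), 3 of them at an unadjusted p under 0.05 (2.92% of all genes). Of 21 genes of B and plasma cells, 10 were higher with all kidneys (median -0.01) and 13 without replicate 4 (median 0.14). Cd3e, part of the T cell receptor complex, had 2.94, 2.65, 1.45 and 3.13 CPM on PBS and 3.78, 4.46, 3.11, 1.38 and 4.94 CPM on rCD5L, a log2 fold change of 0.48 ± 0.36 with all kidneys and 0.68 ± 0.26 without replicate 4 (unadjusted p = 0.0226), and the groups overlapped. In the antigen presentation list 18 of 19 genes were higher without replicate 4 (median 0.19) and 10 with it (median 0.02), and the median was -0.13 without replicate 3 and 0.09 without both.

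Il1b, the gene of interleukin-1 beta, was lower on rCD5L with either set of kidneys. It had 25.8, 28.5, 27.7 and 12.8 CPM on PBS and 13.2, 17.7, 5.95, 5.87 and 14.5 CPM on rCD5L. PBS replicate 4 lay within the treated range, the log2 fold change was -1.04 ± 0.36 (unadjusted p = 0.0151), and without rCD5L replicate 4 it was -0.88 ± 0.32. S100a9, a calcium-binding alarmin of neutrophils, had 3.80, 4.56, 5.03 and 4.47 CPM on PBS and 3.06, 3.55, 3.16, 1.16 and 3.59 CPM on rCD5L. All 5 treated kidneys were below all 4 PBS kidneys, with a log2 fold change of -0.61 (unadjusted p = 0.0608), and -0.41 without replicate 4. Of the 14 tested neutrophil genes, 5 were higher with all kidneys (median -0.25), 6 without replicate 4 (median -0.10) and 7 without replicates 3 and 4 (median -0.02). Over the whole lists, 10 of 24 inflammatory cytokines and receptors were higher with all kidneys (median -0.07) and 14 without replicate 4 (median 0.06), and for 38 chemokines and receptors the counts were 15 (median -0.16) and 20 (median 0.02). Ccl2, the monocyte attractant, had 37.6 to 51.7 CPM on PBS and 48.1, 38.6, 32.4, 8.98 and 49.0 CPM on rCD5L, so that only replicates 3 and 4 were below the PBS range. The injury marker Havcr1 (KIM-1) had 590, 533, 710 and 725 CPM on PBS and 591, 620, 779, 273 and 688 CPM on rCD5L, within the PBS range but for replicates 3 and 4.

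Most proliferation genes had a higher mean on rCD5L, though not in replicate 4, where 18 of 29 were the lowest of all 9 kidneys. Of the 29 tested, 27 were higher with all kidneys (median 0.21, 2 at an unadjusted p under 0.05 beside 1.4% of all genes) and 27 without replicate 4 (median 0.33), 13 of them at an unadjusted p under 0.05 (2.92% of all genes) and 8 without overlap between the groups (2.51% of all genes). Without replicates 3 and 4 the median was 0.26 and 12 had an unadjusted p under 0.05 (4.32% of all genes), and without replicate 3 alone the median was 0.13. By kidney, the median of the list was between -0.06 and 0.11 log2 units on PBS and at 0.19, 0.35, 0.47, -0.34 and 0.25 in rCD5L replicates 1 to 5. All treated kidneys but replicate 4 were above all PBS kidneys.

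Rrm2, the small subunit of ribonucleotide reductase that makes precursors for DNA, had 13.2, 11.7, 12.7 and 12.1 CPM on PBS and 16.3, 17.4, 20.9, 15.6 and 16.2 CPM on rCD5L. It was above all PBS kidneys in all 5, replicate 4 included, with a log2 fold change of 0.47 ± 0.13 (unadjusted p = 0.00399), and 0.51 ± 0.12 without replicate 4. Top2a, the topoisomerase of dividing cells, had 41.1, 36.8, 37.0 and 42.0 CPM on PBS and 44.7, 53.3, 51.3, 29.5 and 47.1 CPM on rCD5L. Only replicate 4 was below the PBS kidneys, and the log2 fold change was 0.21 ± 0.16 with it and 0.33 ± 0.10 without it (unadjusted p = 0.00631). Mki67 had 37.9, 37.0, 35.5 and 37.6 CPM on PBS and 45.3, 49.6, 37.4, 26.6 and 45.9 CPM on rCD5L, and here replicate 3 also lay within the PBS range. Tpx2 and Prc1 of the mitotic spindle were 0.33 ± 0.19 and 0.36 ± 0.22 log2 units higher with all kidneys, and 0.46 ± 0.13 and 0.51 ± 0.14 without replicate 4, where the groups did not overlap. Rrm2, Tpx2 and Prc1 were named after their values were seen.

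Collagens were highest in replicates 1 and 3, and other matrix genes gave mixed values. Of 17 collagens, 15 were higher with all kidneys (median 0.20, 0 at an unadjusted p under 0.05) and 16 without replicate 4 (median 0.39, 3 at an unadjusted p under 0.05, beside 2.92% of all genes), and the median without replicates 3 and 4 was 0.16. Without replicate 3 alone the direction turned, with a median of -0.06. Col1a1 had 613, 677, 498 and 566 CPM on PBS and 985, 570, 1527, 239 and 417 CPM on rCD5L. The treated kidneys lay on both sides of the PBS kidneys, and the log2 fold change of 0.34 ± 0.45 (unadjusted p = 0.456) became 0.58 ± 0.33 without replicate 4, -0.091 without replicate 3 and 0.16 without both. Fn1, fibronectin, had 564, 553, 416 and 463 CPM on PBS and 835, 658, 933, 216 and 489 CPM on rCD5L, a log2 fold change of 0.33 ± 0.35 with all kidneys (unadjusted p = 0.369), 0.55 ± 0.19 without replicate 4 (unadjusted p = 0.0159) and 0.14 without replicate 3. Acta2, the smooth muscle actin of myofibroblasts, had 231, 334, 218 and 235 CPM on PBS and 272, 232, 245, 215 and 266 CPM on rCD5L, and all treated kidneys but replicate 4 were within the PBS range. Postn, the matricellular protein periostin, had 108, 151, 78.4 and 106 CPM on PBS and 100.01, 88.7, 84.3, 25.7 and 64.1 CPM on rCD5L, a log2 fold change of -0.61 ± 0.34 with all kidneys and -0.39 ± 0.19 without replicate 4. Of 36 genes of myofibroblasts and matrix, 14 were higher with all kidneys (median -0.05) and 26 without replicate 4 (median 0.12).

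Among the receptors that take up CD5L, the direction of Cd36 depended on replicate 4. Cd36 had 153, 154, 186 and 186 CPM on PBS and 129, 127, 116, 736 and 124 CPM on rCD5L. The 4 other treated kidneys were below all PBS kidneys and replicate 4 was far above them. The log2 fold change was 0.54 ± 0.56 with all kidneys and -0.45 ± 0.10 without replicate 4 (unadjusted p = 0.00118, adjusted p = 0.763, edgeR). Msr1, the macrophage scavenger receptor, had 16.7, 16.5, 13.8 and 16.1 CPM on PBS and 11.6, 13.5, 6.94, 5.36 and 14.1 CPM on rCD5L, a log2 fold change of -0.61 (unadjusted p = 0.0441) with all kidneys and -0.45 without replicate 4, and only replicate 5 reached the PBS range. Of the 11 tested genes in the list of CD5L and its receptors, 6 were higher with all kidneys and 7 without replicate 4.

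Medians of lists of energy metabolism and antioxidant defence turned with the kidneys used. All but 2 of the 45 nuclear genes of the respiratory chain were higher on rCD5L with all kidneys (median 0.27, 0 at an unadjusted p under 0.05), 12 were higher without replicate 4 (median -0.06), and 0 without replicates 3 and 4 (median -0.20), where 25 were lower at an unadjusted p under 0.05 (5.44% of all genes). Mitochondrially encoded genes had medians of 0.57, -0.18 and -0.34 in the same order. mt-Co1, a subunit of cytochrome c oxidase, had 13569, 15631, 19768 and 15216 CPM on PBS and 13281, 12236, 16491, 55066 and 12709 CPM on rCD5L. Replicates 1, 2 and 5 were below all PBS kidneys, replicate 3 among them and replicate 4 far above. Genes of fatty acid oxidation and the peroxisome were higher in 31, 21 and 5 of 31 cases, with medians of 0.43, 0.09 and -0.14.

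For antioxidant enzymes the median turned only when replicate 3 was left out as well. Of 23, 19 were higher with all kidneys (median 0.31), 15 without replicate 4 (median 0.06) and 4 without replicates 3 and 4 (median -0.12, 7 lower at an unadjusted p under 0.05, beside 5.44% of all genes). Of 36 genes of the Nrf2 pathway, the transcription factor of the antioxidant response, 29, 26 and 12 were higher, with medians of 0.28, 0.11 and -0.04. Both lists hold genes that the study discusses. Sod1, the cytosolic superoxide dismutase, had 256, 251, 304 and 254 CPM on PBS and 230, 220, 419, 718 and 231 CPM on rCD5L. Hmox1, heme oxygenase-1, had 50.8, 52.2, 54.7 and 60.2 CPM on PBS and 50.3, 55.2, 121, 100.4 and 68.9 CPM on rCD5L. In both genes replicates 3 and 4 were the highest of the 9 kidneys, and replicates 1 and 2 were within or below the PBS range. Replicate 5 was below the PBS range for Sod1 and above it for Hmox1. Without replicates 3 and 4 the log2 fold change was -0.23 for Sod1 and 0.096 for Hmox1. Nfe2l2, which encodes Nrf2, had 169, 177, 161 and 188 CPM on PBS and 181, 184, 139, 164 and 201 CPM on rCD5L, without a common direction. Ribosomal protein genes were lower in 23 of 27 cases with all kidneys (median -0.16), in 21 without replicate 4 (median -0.11) and in 27 without replicates 3 and 4 (median -0.21, 21 at an unadjusted p under 0.05, beside 5.44% of all genes), and they were higher than on PBS in replicate 3 alone (0.18 log2 units).

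**Figure D5:**
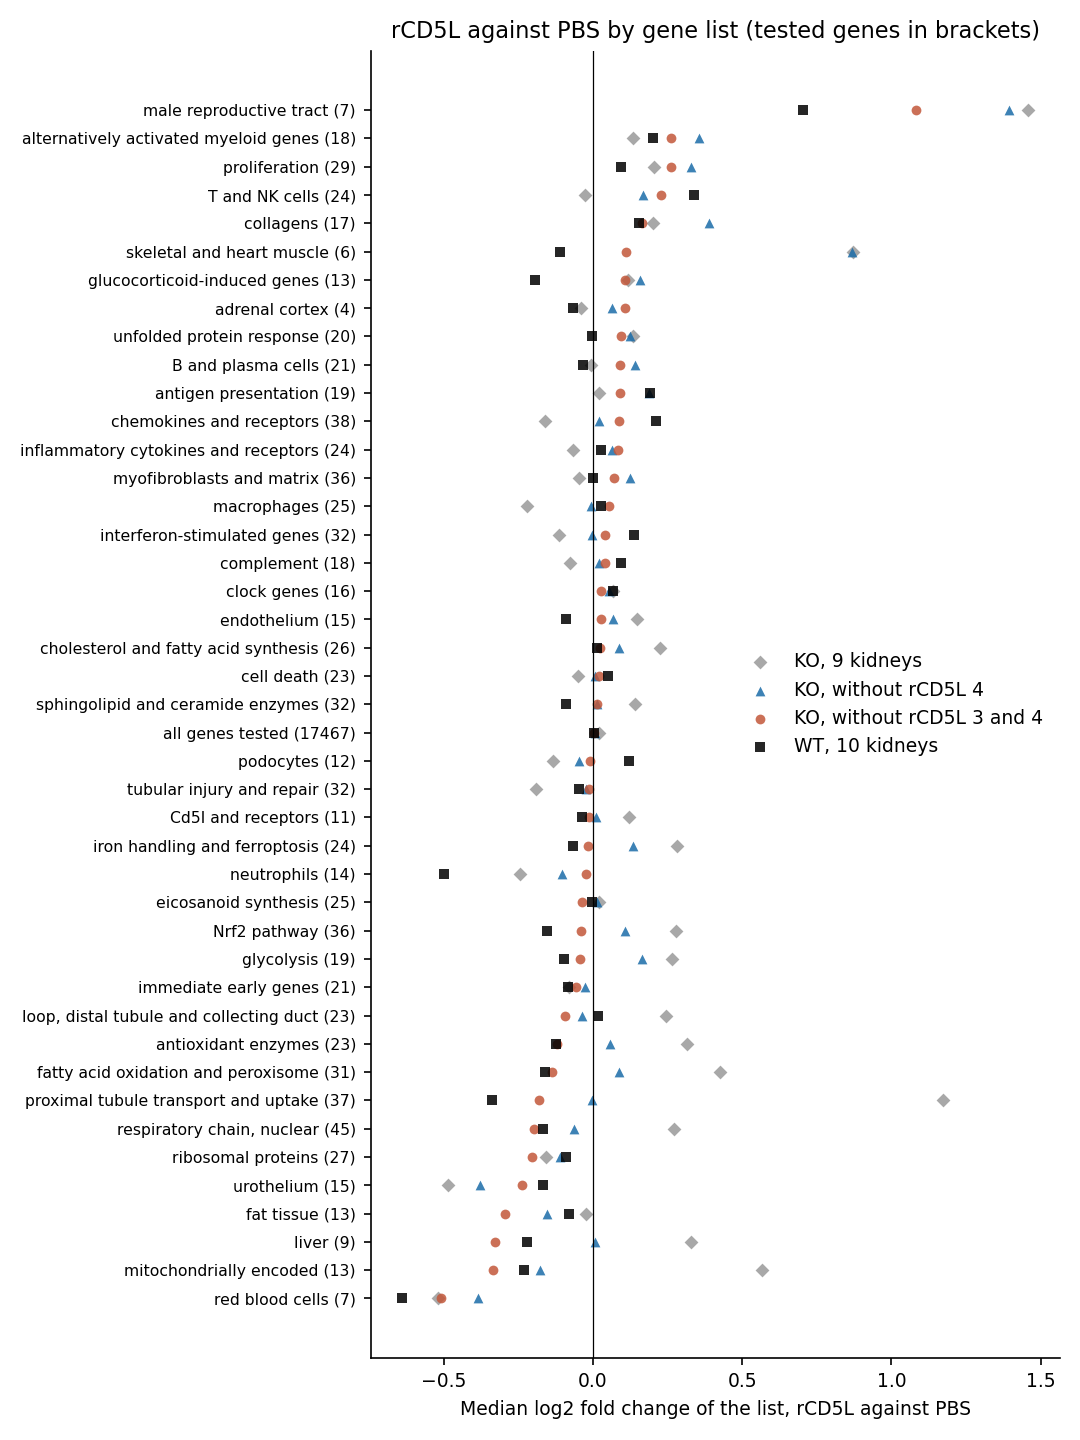
Median log2 fold change of rCD5L against PBS for each list with at least 4 tested genes, in CD5L KO with all 9 kidneys, without rCD5L replicate 4, without replicates 3 and 4, and in WT (10 kidneys). The respiratory chain moves from 0.27 through -0.06 to -0.20, while proliferation (0.21, 0.33 and 0.26) and urothelium (-0.49, -0.38 and -0.24) stay on their side of 0.

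Some genes separated the groups in every kidney, replicate 4 included. Banp, a nuclear DNA-binding protein, had 14.1, 13.3, 12.2 and 14.2 CPM on PBS and 21.3, 24.6, 18.1, 17.2 and 26.2 CPM on rCD5L. The lowest treated kidney lay above the highest PBS kidney, and the log2 fold change was 0.67 ± 0.15 (unadjusted p = 0.00117) with all kidneys and 0.75 ± 0.13 without replicate 4. It was the only gene called when each kidney was given a weight (limma voom, log2 fold change 0.83, adjusted p = 0.00964), a fit that weighted replicates 3 and 4 at 0.135 and 0.0896 and the other kidneys at 1.09 or more. Sfpq, a splicing factor of nuclear paraspeckles, had 115, 128, 128 and 139 CPM on PBS and 184, 170, 161, 165 and 178 CPM on rCD5L, a log2 fold change of 0.43 ± 0.11. DESeq2 called both without replicate 4 (adjusted p = 0.00943 and 0.0379). Cdkn2a, the p16 and p19 cell cycle inhibitor locus, had 1.51, 1.28, 2.13 and 0.994 CPM on PBS and 4.59, 2.52, 5.14, 3.12 and 2.36 CPM on rCD5L, 1.26 ± 0.33 log2 units apart (unadjusted p = 0.00286).

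Among the genes that were lower in all 5, Sarnp, an RNA-binding protein of mRNA export, had 25.2, 21.5, 23.1 and 19.7 CPM on PBS and 15.5, 10.1, 12.7, 8.62 and 14.1 CPM on rCD5L, a log2 fold change of -0.87 ± 0.18 (unadjusted p = 0.000559), and -0.77 ± 0.15 without replicate 4. Sumo2, a ubiquitin-like modifier, had 19.2, 36.2, 15.6 and 76.1 CPM on PBS and 12.1, 10.04, 12.3, 8.91 and 11.1 CPM on rCD5L. Here the spread lay among the PBS kidneys, and the treated kidneys were close together. Rpl30-ps10, annotated as a pseudogene of a ribosomal protein, was at 4.02 to 9.77 CPM on PBS and at 2.69 to 3.55 CPM on rCD5L. Sumo2 and Rpl30-ps10 have near-identical copies elsewhere in the genome, so that the counting of their reads is uncertain. Igfbp1, a binding protein of insulin-like growth factors, had 11.9, 12.7, 16.5 and 11.5 CPM on PBS and 8.33, 5.54, 5.41, 8.77 and 10.1 CPM on rCD5L, a log2 fold change of -0.79 ± 0.22 (unadjusted p = 0.00454), and -0.84 ± 0.22 without replicate 4. The gasdermin genes Gsdmc2 and Gsdmc3, which also resemble each other, were at 15.2 to 26.1 and 6.42 to 14.1 CPM on PBS and at 8.88 to 13.3 and 2.93 to 5.87 CPM on rCD5L. Nov, a matricellular protein, and Zim1, a zinc finger protein, had log2 fold changes of -1.22 ± 0.48 and -1.07 ± 0.29 with all kidneys and of -0.95 ± 0.28 and -0.89 ± 0.21 without replicate 4.

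Markers of other tissues were checked beside these results. Genes of the male reproductive tract were low and higher on rCD5L. Of 22 listed, 7 were tested, 14 were under the count filter and 1 was not in the table, and 6 of the 7 were higher with all kidneys (median 1.46, 5 at an unadjusted p under 0.05 beside 1.4% of all genes, and 4 without overlap beside 1.17% of all genes), while Adam28, which other tissues also express, was lower without overlap (-0.82). Gpx5, the glutathione peroxidase of the epididymis, had 2.55, 4.27, 6.48 and 7.65 CPM on PBS and 15.7, 9.34, 22.8, 16.6 and 10.6 CPM on rCD5L. Lcn5, an epididymal lipocalin, had 1.51, 2.57, 5.08 and 4.22 CPM on PBS and 8.20, 5.78, 14.97, 11.5 and 5.53 CPM on rCD5L. Cuzd1, which DESeq2 called, had 0.432, 0.746, 0.871 and 1.64 CPM on PBS and 3.19, 2.73, 6.09, 4.13 and 2.19 CPM on rCD5L. All 5 treated kidneys were above all 4 PBS kidneys in these genes, and among the PBS kidneys replicate 1 was the lowest in each. The part of tissue from outside the kidney in these values was not tested. Crabp1, a retinoic acid binding protein that is on no list here, had 0.173, 0.538, 0.435 and 0.497 CPM on PBS and 1.53, 0.909, 2.84, 2.10 and 1.69 CPM on rCD5L (log2 fold change 2.12 ± 0.43).

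Urothelial genes, which mark the lining of the renal pelvis and ureter, were lower instead. All 15 tested were lower on rCD5L in all 3 sets of kidneys, with medians of -0.49, -0.38 and -0.24. An unadjusted p under 0.05 was reached by 2 with all kidneys (1.47% of all genes) and 2 without replicate 4 (2.62% of all genes). Without replicates 3 and 4 it was reached by 0 (5.44% of all genes). Upk3a, a plaque protein of this lining, had 15.99, 18.5, 17.5 and 26.6 CPM on PBS and 14.2, 19.2, 8.16, 9.78 and 10.2 CPM on rCD5L, with replicate 2 within the PBS range. By kidney the median of the list ranged from -0.23 to 0.45 log2 units on PBS and from -1.10 to -0.08 on rCD5L. Red blood cell genes ranged from -0.55 to 0.41 on PBS and from -1.59 to 0.27 on rCD5L, and genes of fat tissue from -0.39 to 0.39 and from -1.14 to 0.51, so that both varied within the groups by more than they differed between them.

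The same injection was given to WT mice, in 10 kidneys that are not part of the comparison above and share no library with it. On rCD5L the log2 fold change of Chil3 was 2.67 ± 0.79 in WT and 2.69 in CD5L KO, and that of Retnla 1.53 ± 0.41 in WT and 1.47 in CD5L KO, and the difference between the genotypes had an unadjusted p of 0.96 for both. Igfbp1 was -0.83 ± 0.20 in WT and -0.79 in CD5L KO (p of the difference 0.84, unadjusted). None of the 3 passed the adjusted test in WT (adjusted p = 0.134, 0.121 and 0.109, edgeR), and a p that misses the threshold does not show that the genotypes responded alike. Banp was 0.23 ± 0.07 in WT and 0.67 in CD5L KO (unadjusted p of the difference 0.00633), and Arg1 -1.17 ± 0.64 in WT and 0.81 in CD5L KO (unadjusted p = 0.0548). Proliferation genes were higher in 26 of 29 cases in WT (median 0.09), and nuclear respiratory chain genes were higher in 0 of 45 (median -0.17).

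Across all genes, 0 of 18454 differed between CD5L KO and WT in their response to rCD5L (edgeR interaction test, smallest adjusted p 0.731), and 1154 did at an unadjusted p under 0.05 (6.25%). In these fits across all genes the smallest p of edgeR's test belonged to Ccdc137, a coiled-coil protein, with a log2 fold change of 0.20 in CD5L KO and -0.27 in WT (unadjusted p = 0.000164), and to Nop16, a factor of ribosome assembly, with 0.36 and -0.23 (unadjusted p = 0.000446). Ccdc137 had 20.5, 21.2, 21.6 and 21.4 CPM in CD5L KO on PBS and 22.8, 25.9, 22.5, 23.98 and 26.5 CPM on rCD5L, a small shift in all 5 kidneys.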

How the data were processed

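Whole obstructed kidneys of 19 mice were sequenced as paired reads from random-primed libraries, and the 9 CD5L KO kidneys were compared here. According to the submitters' processing notes, reads were trimmed (Trimmomatic), aligned to GRCm38, or mm10 (HISAT2), and assigned to genes (featureCounts). The authors deposited raw counts, which gave the main results, and FPKM values (counts scaled by gene length and library size), which served as an alternative. Tool versions, strand setting and batches were not given in the sources used here. Counts without molecular identifiers can hold duplicates, so that p-values and limits cover the spread between these kidneys and counting error only.

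Genes were kept by filterByExpr (minimum count 10) and scaled by TMM factors, which were 0.721 in rCD5L replicate 4, 0.932 in replicate 3 and 1.01 to 1.09 elsewhere. rCD5L was tested against PBS with the edgeR 4.0.16 quasi-likelihood test under R 4.3.3, Benjamini-Hochberg adjusted and called under 0.05. DESeq2 1.42.0 and limma 3.58.1 (voom with kidney weights, and log2(FPKM + 1) or log2(FPKM + 0.1) at a mean FPKM of at least 0.5) were alternatives, beside other scalings, filters, kidneys left out and a fit of all 19 kidneys. FPKM fold changes understate those of low genes. The scripts were tested on simulated counts. Per-kidney levels are TMM-scaled CPM, log2 CPM used a prior count of 2, and ± is the standard error.

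Lists of 975 entries in 43 groups were used, of which 972 were in the table. The kidneys, the lists and the tests were chosen with earlier results of these data known. Named genes were the core genes of each list, the 8 furthest apart in each direction without overlap (unadjusted p under 0.05, mean log2 CPM of at least 1) with and without rCD5L replicate 4, genes called in any setting, the 8 furthest outliers of that replicate in each direction, and the 5 smallest p of the genotype difference in each direction. Others are said to be named after their values were seen, or, as Msr1 and Adam28, are list members outside the core.

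No 2 of the 9 libraries agreed within sampling noise (lowest chi-square per degree of freedom 7.61 over 36 pairs). Exact permutation tests (two-sided) of total count, genes detected, the share of the 10 most counted genes and the mitochondrial share, over 126 splits, gave p = 0.437, 0.127, 0.881 and 0.976 (adjusted p 0.635 or more).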

Additional observations from a re-analysis of the deposited data

Results flagged for a closer look

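In a test for a kidney that lies far outside the range of its group, 156 sets of 4 or 5 kidneys were examined, and 23 held such a kidney. Among independent sets chosen in advance, chance alone flags about 1 in 20. These sets reuse the same 9 libraries and include genes chosen after their values were seen, so that the 23 cannot be set against that rate. Replicate 4 of CD5L KO + rCD5L was the outlying kidney in 18 sets. Its 10 most counted genes took 15.4% of counts and its mitochondrially encoded genes 10.3%. The median log2 difference from the PBS kidneys was 2.87 for proximal tubule transport and uptake, 0.75 for the loop, distal tubule and collecting duct, 2.02 for mitochondrially encoded genes and 2.68 for the single tested gene of the pancreas list. It was -1.13 for tubular injury and repair, -1.18 for myofibroblasts and matrix, -1.48 for chemokines and receptors, -1.56 for macrophages, -1.50 for alternatively activated myeloid genes, -1.75 for neutrophils, -1.16 for complement and -0.32 for eicosanoid synthesis. Of the named genes, Cd36 was at 736 CPM, Kap at 34959 CPM, Miox at 2674 CPM and mt-Co1 at 55066 CPM in this kidney.

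Replicate 3 of the same group lay apart for the endothelium list (0.26 log2 units above the PBS mean) and for ribosomal proteins (0.18). The remaining 3 were rCD5L replicate 2 for Rpl30-ps10 (2.69 CPM, where the other treated kidneys were at 3.31 to 3.55 CPM), PBS replicate 4 for Gsdmc3 (14.1 CPM against 6.42 to 7.07 CPM) and PBS replicate 3 for the share of the 10 most counted genes (9.23% against 7.25% to 7.55%).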

How the results depend on the processing

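The count of genes called was 0 in the main test, 3 with DESeq2, 1 with kidney weights in limma voom, 7 with DESeq2 without replicate 4, and 0 with RLE, upper-quartile or no scaling factors, without a filter, with 10 counts in every kidney, with all 19 kidneys in 1 fit, with a robust spread, with FPKM at either pseudocount, and without any single kidney. At an unadjusted p under 0.05 there were 502 genes, 822 with DESeq2, 325 with total counts alone, 1048 without a filter, 2240 with all 19 kidneys in 1 fit, 2101 with kidney weights, 1726 without rCD5L replicates 3 and 4, 1235 with DESeq2 and 959 with a robust spread without replicate 4, and 221 to 965 without 1 kidney, lowest without PBS replicate 1 (221) or 2 (225) and highest without rCD5L replicate 4 (965), 2 (806) or 5 (766). The fits with total counts alone and without replicates 3 and 4, and DESeq2 and the robust spread without replicate 4, were chosen after seeing the data. The cause was not tested. Total counts alone moved the median log2 fold change of all genes from 0.02 to -0.083, and 73 genes were then higher and 252 lower at an unadjusted p under 0.05 (upper-quartile factors 142 and 334, main 245 and 257).

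Replicate numbers 1 to 4 occur in both groups. The deviations of same-numbered kidneys from their group means correlated at 0.215, 0.125, 0.160 and 0.0190, and those of kidneys with different numbers at -0.354 to 0.316. The last pair was not over 0.1, and PBS replicate 1 correlated best with rCD5L replicate 2 (0.291) and PBS replicate 3 with rCD5L replicate 4 (0.316), so that the numbers were not taken as pairs. With the replicate block 0 genes were called and 768 had an unadjusted p under 0.05.

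The BCV of CD5L KO + rCD5L was 36.7%, 23.7% to 39.7% without 1 kidney and 13% without replicates 3 and 4, and that of CD5L KO + PBS was 12.3% and 10.1% to 13.6%. Without rCD5L replicate 4 the difference of the group means reversed for the share of the 10 most counted genes (from 1.08 to -0.54 percentage points) and for the mitochondrial share (from 0.84 to -0.54). The difference between CD5L KO and WT called 0 genes in each fit, also without replicate 4 and with DESeq2 (1463 at an unadjusted p under 0.05).

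Of the 172 named genes, 27 had the opposite direction without replicate 4 and 55 without replicates 3 and 4, and of 171 also tested without replicate 3 there were 12. Every setting was tried for 31 of the genes in the report, chosen after their values were seen, of which 5 turned in at least 1 setting. The log2 fold change of Cd36 was -0.35 with kidney weights, -0.45 without replicate 4, by DESeq2 there -0.45 and with a robust spread -0.45, and -0.42 without replicates 3 and 4. The log2 fold change of Kap was -0.22, -0.0020, -0.00064, -0.0020 and -0.45 in the same order, and the log2 fold change of mt-Co1 -0.24, -0.22, -0.22, -0.22 and -0.33. The log2 fold change of Miox was -0.13 without replicates 3 and 4, and the log2 fold change of Col1a1 -0.081 with kidney weights and -0.091 without replicate 3. Without 1 kidney, the log2 fold change of Cd36 ranged from -0.45 to 0.71, of Kap from -0.0020 to 1.79, of mt-Co1 from -0.22 to 0.60 and of Col1a1 from -0.091 to 0.58. Medians of 14 of the 43 lists moved by more than the spread between kidneys without replicates 3 and 4, of 4 without replicate 4, of 3 without replicate 3 and of 3 with total counts alone.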
